A study of Mus musculus with 19 samples.

Results

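Slpi, Cxcl13, Cd40 and Il4i1 are 4 immune genes among the 12629 genes of the expression table. They were chosen from these same values. Among genes called with groups that did not overlap, Slpi, Cxcl13 and Cd40 had the 3 largest rises after dorsal root crush in GFP neurons, and Slpi and Il4i1 had the 2 largest falls with α9k1 after crush. Those 2 comparisons are therefore given here as a description of the members, with no test.

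Slpi encodes secretory leukocyte protease inhibitor, a small secreted protein that blocks serine proteases such as neutrophil elastase and that dampens NF-κB activity in macrophages. Cxcl13 encodes the chemokine that attracts B cells and follicular helper T cells through the receptor CXCR5. CD40 is a receptor of the TNF receptor family on antigen-presenting cells. CD40 ligand on T cells engages it, and TRAF adaptors then pass the signal to the canonical and noncanonical NF-κB pathways. IL4I1 is a secreted L-amino acid oxidase of macrophages, dendritic cells and B cells whose products from tryptophan activate the aryl hydrocarbon receptor (AhR). In a dorsal root ganglion (DRG), the cluster of sensory neuron cell bodies beside the spinal cord, resident and infiltrating macrophages are known to respond to nerve injury.

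The 19 libraries form 4 groups. Cervical DRGs received either an AAV5 vector with membrane-targeted GFP under the CMV promoter, or a pair of AAV5 vectors with V5-tagged α9 integrin under CAG and kindlin-1 fused to GFP under CMV (α9k1). The dorsal roots were then either crushed or left intact, which gave GFP-naive (n = 5), GFP-crush (n = 4), α9k1-naive (n = 6) and α9k1-crush (n = 4), and GFP-positive cells were sorted 8 weeks later. α9 integrin is a receptor for the matrix protein tenascin-C, and kindlin-1 activates integrins. All groups carry an AAV5 vector and GFP, so none is untransduced. The sort selects the GFP of the kindlin-1 vector, so cells without the α9 vector can be present in the α9k1 groups. The study's methods describe 2-month-old male Lewis rats dissociated with trypsin and collagenase, while the sample labels give C57BL/6 mouse and papain. The species of the animals was not settled here. Gene positions, neighbours, shared exon bases and promoter letters below are those of the mouse reference and may differ in the animals sequenced.

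All values are levels on a log2 scale, normalized by the authors for gene length and depth, with 1 unit for each doubling. Libraries held 36387140 to 87576777 read pairs, of which 47.5% to 54.1% aligned to the mouse genome with 3.87% to 4.05% mismatched bases. Within a group, libraries correlated across genes at 0.948 to 0.977. Fermt1, which encodes kindlin-1, was low in both GFP groups (0.62 ± 0.16 naive, SD, n = 5, and 0.57 ± 0.12 crushed, n = 4) and high in both α9k1 groups (5.58 ± 0.33 naive, n = 6, and 7.17 ± 0.66 crushed, n = 4), in keeping with the GFP and α9k1 labels. Itga9, which encodes α9 integrin, averaged 2.11 ± 0.25 and 1.51 ± 0.44 in naive and crushed GFP neurons, and 3.87 ± 0.92 and 6.59 ± 0.82 in naive and crushed α9k1 neurons. Both genes averaged higher in crushed than in naive α9k1 neurons, and the part of this in the results was not tested. Replicates are separate samples in the labels, but no source used here says how many animals each holds, so the p-values measure the spread between these samples.

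The 4 genes lie on 3 chromosomes of the mouse build GRCm38. Slpi (ENSMUSG00000017002) spans chr2:164354070-164389095 on the minus strand, and Cd40 (ENSMUSG00000017652) spans chr2:165055627-165072948 on the plus strand. Cxcl13 (ENSMUSG00000023078) spans chr5:95956951-95961068 and Il4i1 (ENSMUSG00000074141) spans chr7:44816387-44840809, both on the plus strand. The 250 bases before the RefSeq start of each gene in the promoter table (GRCm38.p6, mouse reference sequence, 3 of the 4 members) are shown, 5′ to 3′ on the gene's strand, to let their letters be compared. For Slpi and Il4i1 the RefSeq start lies inside the span given above, which covers every annotated transcript. Capitals mark a match to a searched motif.
Slpi, chr2:164356508-164356757, minus strand: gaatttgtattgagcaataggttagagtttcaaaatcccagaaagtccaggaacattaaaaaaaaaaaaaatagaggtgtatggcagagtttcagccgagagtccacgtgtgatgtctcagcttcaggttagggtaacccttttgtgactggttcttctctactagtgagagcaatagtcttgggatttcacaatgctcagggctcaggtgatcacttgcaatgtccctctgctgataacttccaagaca
Cxcl13, chr5:95956689-95956938, plus strand: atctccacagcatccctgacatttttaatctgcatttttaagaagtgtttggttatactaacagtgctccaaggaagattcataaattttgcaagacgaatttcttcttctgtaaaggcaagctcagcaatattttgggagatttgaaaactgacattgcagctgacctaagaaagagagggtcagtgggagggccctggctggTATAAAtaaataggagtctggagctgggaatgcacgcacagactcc
Il4i1, chr7:44836038-44836287, plus strand: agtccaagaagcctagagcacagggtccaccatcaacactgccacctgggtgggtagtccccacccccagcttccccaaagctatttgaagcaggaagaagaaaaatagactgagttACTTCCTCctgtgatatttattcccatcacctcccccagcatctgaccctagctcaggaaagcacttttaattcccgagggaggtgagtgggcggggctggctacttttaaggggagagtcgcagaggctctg

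Each sequence was searched on both strands for 6 motifs, picked with the sequences in view. The Cxcl13 sequence held the TATA box letters TATAAA, 46 to 41 bases before the start, as did 12.4% of the 32851 promoters in the table. The Il4i1 sequence held ACTTCCTC, the reverse complement of the PU.1 letters GAGGAAGT, 133 to 126 bases before the start, and 2.44% of promoters held a PU.1 match. No match was found in any of the 3 sequences for the NF-κB motif (3.90% of promoters), the AP-1 letters TGANTCA (6.75%), the STAT letters TTCNNNGAA (7.02%) or the IRF motif (2.98%). These matches describe letters and show no binding.

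Slpi was lowest in GFP-naive and highest in GFP-crush, and both α9k1 groups lay between these. In GFP-naive neurons its levels were 4.30, 3.96, 2.34, 2.93 and 2.26, and in GFP-crush they were 9.09, 8.86, 9.35 and 9.70. The α9k1-naive levels ran from 5.73 through a median of 6.02 to 6.91, and the α9k1-crush levels were 4.71, 4.84, 5.81 and 4.91. Every GFP-crush library stood above every other library, and every GFP-naive library stood below every other library. The α9k1 groups overlapped in 1 library, the α9k1-crush library at 5.81. The ratio of group means was 68.1-fold for GFP-crush over GFP-naive and 8.12-fold for α9k1-naive over GFP-naive, and GFP-crush exceeded α9k1-crush by 18.2-fold.

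Cxcl13 stood high in 3 of the 4 groups. GFP-naive levels were 3.88, 4.81, 4.29, 4.61 and 4.17. GFP-crush levels were 8.77, 7.65, 8.41 and 8.43, and α9k1-crush levels were 8.06, 8.46, 7.44 and 7.69. The α9k1-naive levels ran from 7.31 through a median of 7.78 to 8.20. These last 3 groups overlapped one another and none overlapped GFP-naive, so the order of their means (7.77 ± 0.37 in α9k1-naive, 7.91 ± 0.45 in α9k1-crush and 8.31 ± 0.47 in GFP-crush) did not exceed their spread. Crush went with a 15.6-fold higher mean in GFP neurons, and α9k1 without crush went with a 10.7-fold higher mean.

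Cd40 followed the order of Slpi at lower levels. It measured 1.0, 1.53, 0.80, 1.04 and 0.47 in GFP-naive and 4.62, 4.05, 5.0 and 4.76 in GFP-crush. In α9k1-naive it ran from 2.50 through a median of 3.20 to 3.66, and in α9k1-crush it measured 2.61, 3.30, 2.59 and 1.90. GFP-naive lay below all other libraries and GFP-crush above all others, while the α9k1 groups overlapped. The mean was 12.4-fold higher in GFP-crush and 4.53-fold higher in α9k1-naive than in GFP-naive, and 4.02-fold higher in GFP-crush than in α9k1-crush.

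Il4i1 was high in GFP-crush alone among the 4 groups. Its levels were 1.97, 2.50, 2.36, 1.24 and 2.09 in GFP-naive, 4.31, 4.45, 3.82 and 4.33 in GFP-crush, and 2.52, 2.49, 3.0 and 3.05 in α9k1-crush. In α9k1-naive they ran from 1.71 through a median of 3.0 to 3.43. The GFP-crush libraries stood above all others, and the other 3 groups overlapped. The means of α9k1-naive (2.76 ± 0.68) and α9k1-crush (2.77 ± 0.30) were nearly equal, and the GFP-crush mean was 4.58-fold that of GFP-naive.

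Il4i1 carries a limit of its own. Of its 4080 annotated exon bases, 3423 (83.9%) are shared with exons of Tbc1d17 on the opposite strand, and smaller parts with Atf5 and Nup62. Reads fell on the annotated strand at 49.9% to 50.05%, so strand was not kept and reads of these genes cannot be told apart. Tbc1d17, a Rab GTPase-activating protein gene, averaged 6.52 ± 0.12, 6.30 ± 0.11, 6.15 ± 0.09 and 6.48 ± 0.13 in GFP-naive, GFP-crush, α9k1-naive and α9k1-crush, and did not share the rise of Il4i1 in GFP-crush. Cd40 and Il4i1 both belonged to the 25% of genes with the lowest mean level. Genes entered the table if they had enough reads in about 4 libraries, which a single crush group could supply.

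**Figure D1:**
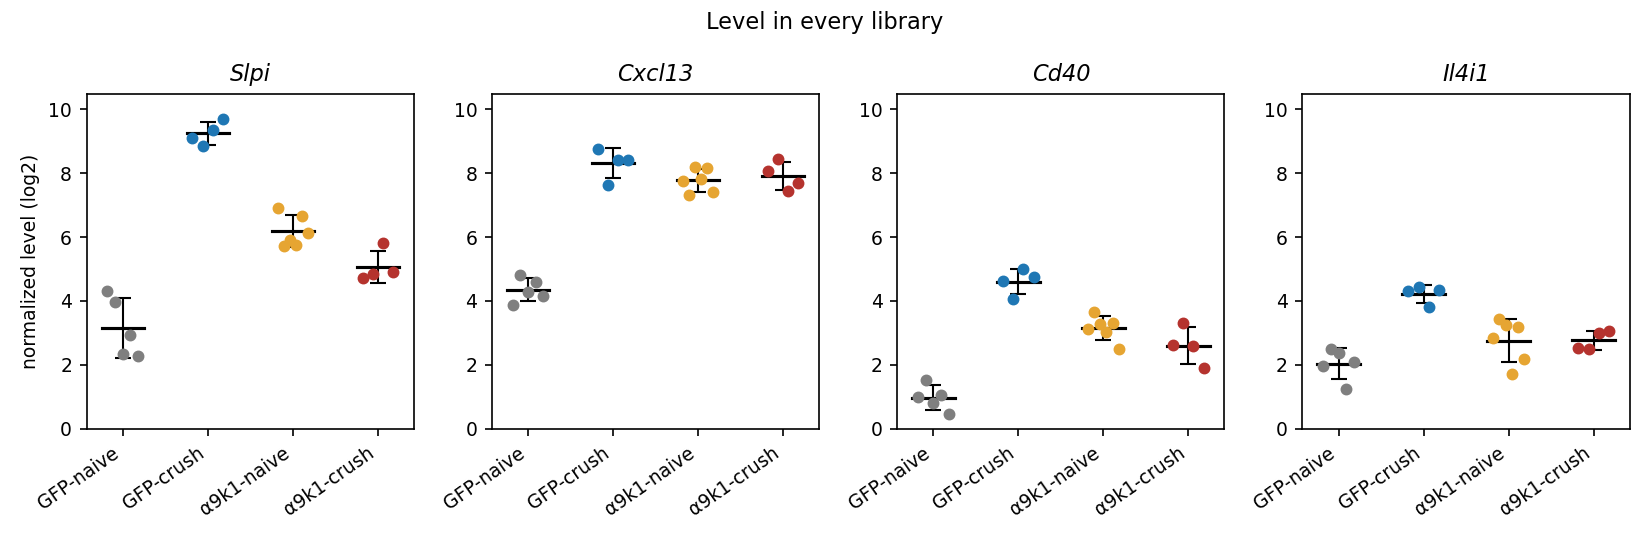
Normalized level (log2) of each member in every library, with 1 panel per gene, 1 point per library and the group mean ± SD. GFP-crush libraries stand above all others for Slpi (8.86 to 9.70), Cd40 (4.05 to 5.0) and Il4i1 (3.82 to 4.45), whereas for Cxcl13 GFP-crush (7.65 to 8.77) overlaps both α9k1 groups.

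The first comparison that did not choose the members set α9k1-naive against GFP-naive, both without root crush. It shares the GFP-naive libraries with the crush comparison that chose Slpi, Cxcl13 and Cd40. In a limma fit over all libraries that held 3 components of the sequencing metrics equal, Slpi was 2.71 higher on the log2 scale in α9k1-naive than in GFP-naive (SE 0.48, 95% interval 1.68 to 3.74, limma adjusted p = 0.00102). Cxcl13 was 3.47 higher (SE 0.31, 95% interval 2.81 to 4.12, limma adjusted p = 1.36e-06). Cd40 was 1.99 higher (SE 0.35, 95% interval 1.24 to 2.74, limma adjusted p = 0.000933). Il4i1 differed by 0.43 (SE 0.32, 95% interval -0.24 to 1.11, limma adjusted p = 0.36) and did not pass. Its value ranged from 0.031 without GFP-naive replicate 4 to 0.81 without α9k1-naive replicate 6, and it was called by limma in 0 of 19 fits that each left out 1 library.

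Thus 3 of the 4 members were called higher at an adjusted p under 0.1, where 11.4% of all genes were, and the same 3 had groups that did not overlap, where 8.43% of genes did so upward. Slpi, Cxcl13 and Cd40 were chosen for a rise over these same GFP-naive libraries, where low values help. That choice favours a rise here too, so the counts, shares and p-values of this comparison are no independent test. In an exact 2-sided permutation test of the deposited values, Slpi, Cxcl13 and Cd40 each gave p = 0.0022, the smallest that 6 against 5 libraries allow, and Il4i1 gave p = 0.0714. Over all 8 such tests made here, these are raw values.

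The second comparison asked what crush did in α9k1 neurons, and it shares the α9k1-crush libraries with the comparison that chose Slpi and Il4i1. At equal covariates Slpi was -1.91 (SE 0.87, 95% interval -3.77 to -0.05, limma adjusted p = 0.222) and Cxcl13 was 0.94 (SE 0.55, 95% interval -0.24 to 2.12, limma adjusted p = 0.345), α9k1-crush minus α9k1-naive. Cd40 was -0.57 (SE 0.63, 95% interval -1.92 to 0.78, limma adjusted p = 0.663) and Il4i1 was -1.26 (SE 0.57, 95% interval -2.48 to -0.05, limma adjusted p = 0.217). None of the 4 members was called by limma, where 9.74% of all genes were. At an unadjusted p under 0.05, limma listed 2 of the 4, Slpi and Il4i1, where 21.5% of all genes were listed. These are the 2 members chosen for a fall in the same α9k1-crush libraries. That choice favours lower values here, so this count is a description.

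In the exact permutation test of the deposited values, whose smallest p here is 0.00476, Slpi gave p = 0.0143, Cxcl13 p = 0.61, Cd40 p = 0.119 and Il4i1 p = 0.995. For Il4i1 the fitted difference of -1.26 stands beside deposited means that differ by 0.0079, so that value comes from holding the covariates equal. The third component of the sequencing metrics averaged -3.56 ± 0.83 (SD, n = 4) in α9k1-crush against 1.73 ± 1.71 (n = 6) in α9k1-naive, and the groups and this component cannot be fully told apart. Without covariates Slpi at -1.12 (limma adjusted p = 0.0194) and Cd40 at -0.55 (limma adjusted p = 0.0907) were called.

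In the choosing comparisons the same fit put Slpi 6.29 (SE 0.49), Cxcl13 3.85 (SE 0.31), Cd40 3.76 (SE 0.35) and Il4i1 2.14 (SE 0.32) higher in GFP-crush than in GFP-naive. Groups did not overlap for all 4, as for 7.59% of genes upward. Among the 594 genes called higher with groups apart, these ranked 1, 2, 3 and 39, and the genes just outside were the chemokine Cxcl9 at 3.68 and the chemokine receptor Ccr7 at 3.46. Between α9k1-crush and GFP-crush the fitted differences were -5.49 (SE 1.05) for Slpi, -2.97 (SE 0.69) for Il4i1, -2.33 (SE 0.77) for Cd40 and 0.56 (SE 0.67) for Cxcl13. Without covariates, as plain differences of the group means, these were -4.18, -1.46, -2.01 and -0.40, so the direction of Cxcl13 turned with the covariates. Groups did not overlap for Slpi, Il4i1 and Cd40, as for 20.8% of genes downward. Slpi and Il4i1 led the 18 genes called lower with groups apart, and Arhgap15 at -2.23 and Samhd1 at -2.16 stood just outside.

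**Figure D2:**
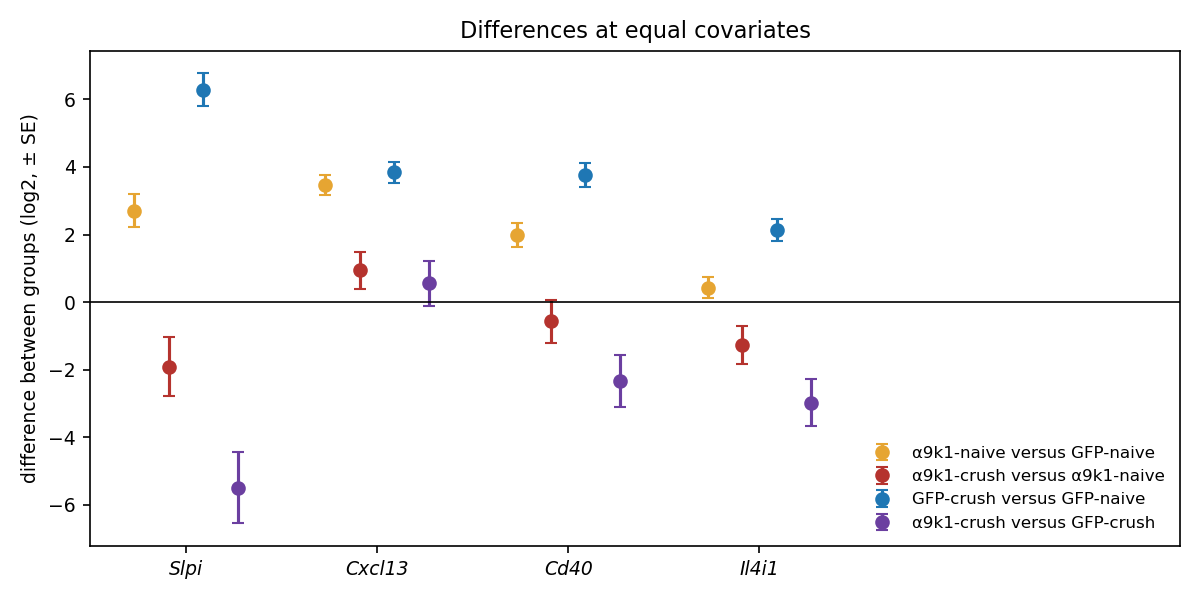
Differences between groups (log2, ± SE) for the 4 members in the 4 comparisons, from the fit at equal covariates. Slpi runs from 6.29 for crush in GFP neurons to -5.49 for α9k1 after crush, while Cxcl13 stays at or above 0.56 in all 4 at equal covariates, and is -0.40 without them for α9k1 after crush. Only the comparisons α9k1-naive minus GFP-naive and α9k1-crush minus α9k1-naive were tested for the members.

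The genes most alike to each member in level over the 19 libraries were taken by Pearson r, given as a description because libraries share groups and processing. For Slpi these were Samhd1, a dNTP hydrolase that restricts retroviruses (r = 0.958), AW112010 (0.940), Cd40 (0.935), the leukocyte actin-binding gene Lsp1 (0.916) and the leukocyte myosin Myo1g (0.915). For Il4i1 they were Samhd1 (0.862), the aspartic protease Napsa (0.857), Slpi (0.830), Myo1g (0.810) and Lsp1 (0.808). Samhd1, Lsp1 and Myo1g thus stood on both lists.

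For Cd40 the list read AA467197 (0.960), the chemokine Cxcl11 (0.948), Slpi (0.935), H2-Eb2 (0.933) and H2-Aa (0.931). For Cxcl13 it was made of complement C1q subunits and MHC class II chains, with C1qc (0.975), H2-Ab1 (0.973), C1qb (0.972), C1qa (0.968) and H2-Aa (0.968). After group means were removed, Cxcl13 correlated with its listed genes at 0.649 (H2-Ab1) to 0.89 (C1qb). Slpi correlated with its own listed genes at -0.110 (Myo1g) to 0.554 (Lsp1), with Samhd1 at 0.548 and Cd40 at 0.303. Slpi and Cxcl13 correlated at 0.762 over all libraries and at 0.0069 within groups.

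Markers of macrophages also differed between the groups. Of 16 listed markers 12 were analysed, and their summed level (log2 of the sum of linear values, led by Cd74, Lyz2 and Aif1) ranged from 9.12 to 9.71 in GFP-naive, 11.25 to 11.90 in GFP-crush, 10.69 to 11.19 in α9k1-naive and 10.86 to 11.60 in α9k1-crush. The mean sum was 10.93 in α9k1-naive and 11.17 in α9k1-crush, where Slpi averaged 6.18 and 5.07 and Cd40 averaged 3.15 and 2.60. Against GFP-naive, 9 of the 12 were called higher in α9k1-naive, where 11.4% of all genes were, and 9 in GFP-crush, where 7.39% were. In α9k1-crush, 2 (Cd68 and C1qc) were called higher than in α9k1-naive, as were 4.47% of all genes. Cd68 lost its call without α9k1-naive replicate 4, C1qc kept it in 6 of 19 fits that each left out 1 library, and neither was called when only these 2 groups were fitted. Between α9k1-crush and GFP-crush, limma called 0 of the 12, with 1 at an unadjusted p under 0.05, and 3 lower and 2 higher without covariates. The neuron sort did not leave macrophage RNA at 0, and in such bulk samples fewer cells of a type and less RNA per cell cannot be told apart.

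The members were also set against this macrophage sum, a measure chosen after the data were seen. The GFP-crush values below include those that chose the members, so they are a description. Slpi minus the sum was -2.38 ± 0.21 (SD, n = 4) in GFP-crush, -6.28 ± 0.90 (n = 5) in GFP-naive, -6.10 ± 0.70 (n = 4) in α9k1-crush and -4.75 ± 0.35 (n = 6) in α9k1-naive. The GFP-crush range of -2.67 to -2.20 overlapped no other group. Cxcl13 minus the sum was -5.09 ± 0.21 in GFP-naive and lay close together elsewhere, at -3.32 ± 0.27 in GFP-crush, -3.16 ± 0.27 in α9k1-naive and -3.26 ± 0.36 in α9k1-crush. Cd40 minus the sum was -8.47 ± 0.23, -7.03 ± 0.27, -7.78 ± 0.38 and -8.57 ± 0.54 in GFP-naive, GFP-crush, α9k1-naive and α9k1-crush. Il4i1 minus the sum was -7.41 ± 0.53 in GFP-naive and -7.41 ± 0.43 in GFP-crush, against -8.17 ± 0.63 in α9k1-naive and -8.40 ± 0.50 in α9k1-crush. The sum adds linear values, so it mostly follows Cd74, whose mean was 8.53 in GFP-naive and 11.06 in GFP-crush. Lyz2 averaged 5.97 and 7.58 in these groups and Aif1 5.73 and 7.21. The equal Il4i1 averages therefore hold for this sum and need not hold for other markers.

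**Figure D3:**
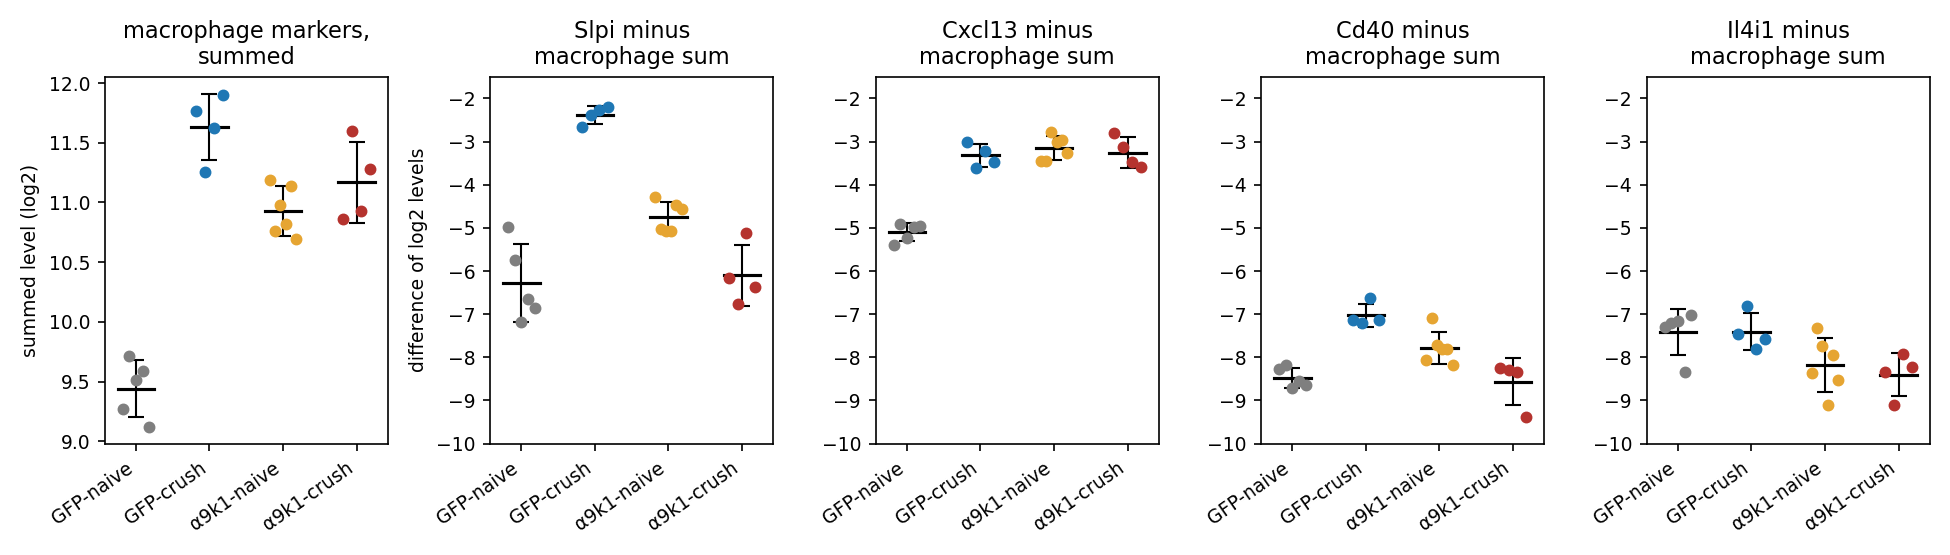
Left panel, summed level of 12 macrophage markers (log2) in every library. Other panels, each member's level minus that sum (difference of log2 levels), with points for libraries. Slpi minus the sum lies between -2.67 and -2.20 in GFP-crush and at or below -4.28 in the other 3 groups. Il4i1 minus the sum, which mostly follows Cd74, averages -7.41 in both GFP groups.

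Other cell types that can make these proteins were followed with their own lists. For dendritic cells 6 of 10 markers were analysed, and the summed level, led by the MHC class II genes H2-Ab1 and H2-Aa, was 7.17 to 7.74 in GFP-naive, 9.32 to 10.11 in GFP-crush, 8.87 to 9.51 in α9k1-naive and 9.19 to 9.77 in α9k1-crush. Of these, 3 were called higher in α9k1-naive and 4 in GFP-crush than in GFP-naive. For neutrophils, a main source of SLPI, only Lcn2 of 13 markers was analysed, at means of 2.99, 2.89, 3.04 and 1.76 in GFP-naive, GFP-crush, α9k1-naive and α9k1-crush. At equal covariates limma did not call it in any comparison, nor under an unadjusted p of 0.05. Its α9k1-crush levels (1.24 to 2.34) nonetheless lay below every other library, the lowest of those being 2.45. Against GFP-crush, 20.8% of all genes had groups apart downward. S100a8 and S100a9 were not analysed here.

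For B cells, which CXCL13 attracts, and plasma cells, 4 of 10 markers were analysed (led by Xbp1 and Igkc), and the summed level was highest in GFP-naive (8.13 to 9.53) and lower in GFP-crush (7.47 to 7.56), α9k1-naive (7.02 to 7.87) and α9k1-crush (6.94 to 7.25). In α9k1-naive 2 of them and in GFP-crush 1 were called lower than in GFP-naive. The defining genes Ms4a1, Cd79a and Cd79b were not analysed here. For T and NK cells 3 of 10 were analysed, with summed levels of 3.58 to 5.06 over all libraries, and 1 was called higher and 1 lower in α9k1-naive, against 0 in GFP-crush by limma (1 at an unadjusted p under 0.05). The glial list (12 of 12) summed to 15.82 to 16.19, 15.16 to 15.49, 16.34 to 16.84 and 14.54 to 15.20 in the order GFP-naive, GFP-crush, α9k1-naive and α9k1-crush. The endothelial and fibroblast list (8 of 12) summed to 9.57 to 9.90, 8.43 to 8.85, 6.97 to 8.37 and 8.01 to 8.52. Against GFP-naive, 3 glial markers were called higher and 5 lower in α9k1-naive and 1 higher and 5 lower in GFP-crush, and all 8 endothelial and fibroblast markers were lower in α9k1-naive and 5 in GFP-crush. All 15 neuronal markers were analysed, and their sum lay between 13.56 and 14.58, with 1 called higher and 4 lower in α9k1-naive and 7 higher and 1 lower in GFP-crush. Of all genes 11.4% were called higher and 17.6% lower in α9k1-naive, and 7.39% higher and 15.7% lower in GFP-crush. In α9k1-crush against α9k1-naive, 4 of 12 glial markers were called higher and 4 lower, 4 of 8 endothelial and fibroblast markers, 4 of 15 neuronal markers, 1 of 6 dendritic and 1 of 3 T and NK markers were called higher, and limma called 0 of 4 B and plasma cell markers (1 at an unadjusted p under 0.05). Of all genes 9.74% were called there, 4.47% higher and 5.27% lower. The part of RNA of these cell types in the members' differences was not tested.

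The genes around the members were then followed by role, with the members left out of each list. The first list was that of CD40 and NF-κB signalling. Of 19 analysed genes of 24 listed, 10 were called higher and 0 lower with α9k1 without root crush, with a median difference of 0.89. Over all genes 29.1% were called (11.4% higher and 17.6% lower) and the median was -0.08. The largest were the NF-κB brake Tnfaip3 at 3.06 (SE 0.20, limma adjusted p = 5.77e-08), the inhibitor of apoptosis Birc3 at 2.91 (SE 0.19) and the adhesion molecule Icam1 at 2.43 (SE 0.14). After crush in GFP neurons 4 were called higher and 2 lower, with a median of 0.21. Of all genes 23.1% were called there, 7.39% higher and 15.7% lower with a median of -0.08, and higher calls rose from 32.0% to 60.7% of calls with median-centred libraries. The list was led by the costimulatory Cd86 at 2.27 (SE 0.29) and the adaptor Traf1 at 1.07 (SE 0.24), with Birc3 at 0.85 (SE 0.19).

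Between α9k1-crush and α9k1-naive, where 4.47% of all genes were called higher and 5.27% lower, 1 gene of that list was called, Birc2 at -0.86 (limma adjusted p = 0.0361), a call lost without α9k1-naive replicate 1, and the median was -0.18. Between α9k1-crush and GFP-crush, where 0.911% of all genes were called (0.728% higher and 0.182% lower, median 0.01), Nfkbia, the inhibitor IκBα, was higher by 2.48 (SE 0.26, limma adjusted p = 0.000274) and Tnfaip3 by 2.42 (SE 0.44, limma adjusted p = 0.0179), the latter lost without GFP-crush replicate 2, and the median was 0.45. Cd40lg, Map3k14, Rel, Cd80 and Bcl2a1b were not analysed here.

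On the CXCL13 and lymphoid chemokine list, 11 of 24 genes were analysed. With α9k1 and no crush 6 were called higher and 0 lower (median 1.07), led by the interferon-induced chemokine Cxcl10 at 4.51 (SE 0.21), the homing receptor Ccr7 at 3.35 (SE 0.46) and Cxcl9 at 3.25 (SE 0.28). After crush in GFP neurons 4 were called higher and 3 lower (median 0.06), with Cxcl9 at 3.68 (SE 0.29), Ccr7 at 3.46 (SE 0.46) and Cxcl11 at 2.73 (SE 0.35). Cxcl10 was not among them, at means of 4.79 ± 0.48 in GFP-crush and 4.76 ± 0.19 in GFP-naive, and it was 3.27 higher in α9k1-crush than in GFP-crush (SE 0.46, limma adjusted p = 0.00256), the single call on this list there (median -0.18).

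In α9k1-crush against α9k1-naive, 2 chemokine-list genes were called lower (median -0.61), the B cell survival factor Tnfsf13 at -1.33 (limma adjusted p = 0.0847) and the TNF receptor Tnfrsf1a at -0.95 (limma adjusted p = 0.0486). Tnfsf13 kept its call in 9 of 19 fits that each left out 1 library, and Tnfrsf1a lost it without GFP-naive replicate 1 and without α9k1-naive replicate 1. The receptor gene Cxcr5 and the chemokines Ccl19, Ccl21a and Cxcl12 were not analysed here.

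The list around SLPI held serine proteases, other targets of SLPI and other protease inhibitors. Of 15 analysed genes of 26, α9k1 without crush called 3 higher and 2 lower (median 0.18), among them the protease Prss23 at -1.13 (SE 0.29) and the protease inhibitor Serpine2 at 0.83 (SE 0.15). After crush in GFP neurons 3 were called higher and 3 lower (median 0.01), the widest being Prss23 at -0.88 (SE 0.29), called in 15 of 19 fits without 1 library, the lysosomal protease Ctsb at 0.67 (SE 0.16) and the granzyme B inhibitor Serpinb9 at 0.59 (SE 0.14). In α9k1-crush against α9k1-naive, Serpine2 at -1.17 (SE 0.27) and Ctsl at -0.80 (SE 0.23), the latter called in 14 of 19 such fits, were lower (median -0.30), and the list median between α9k1-crush and GFP-crush was -0.18. The neutrophil proteases Elane, Ctsg and Prtn3 were not analysed here.

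For IL4I1, amino acid catabolism and AhR, 15 of 26 genes were analysed. Without root crush α9k1 went with 5 called higher and 1 lower (median -0.04, above 0 under both other scalings), among them tryptophan dioxygenase Tdo2 at 1.80 (SE 0.62) and the AhR target Tiparp at 1.80 (SE 0.25). Tdo2 lost its call without GFP-naive replicate 4, GFP-crush replicate 3 or α9k1-naive replicate 6. After crush in GFP neurons, 1 was called higher and 3 lower (median -0.46). Tiparp was -1.16 (SE 0.25) and the aminotransferase Aadat was -0.77 (SE 0.22), a call lost without GFP-naive replicate 2 or GFP-crush replicate 2, while the oxidase Maoa at 0.55 (SE 0.21) was called in 6 of 19 fits.

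Il4i1 and the AhR target Tiparp thus moved in opposite directions after crush in GFP neurons. In α9k1-crush against α9k1-naive, 2 genes of the list were called lower (median -0.47), among them Aadat at -1.91 (SE 0.39). Tiparp was 2.27 higher in α9k1-crush than in GFP-crush (SE 0.55, limma adjusted p = 0.0955, median -0.10), called in 7 of 19 fits that left out 1 library. The tryptophan enzymes Ido1 and Kynu and the AhR targets Ahrr and Cyp1a1 were not analysed here. None of these lists or counts was compared with other sets of genes.

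**Figure D4:**
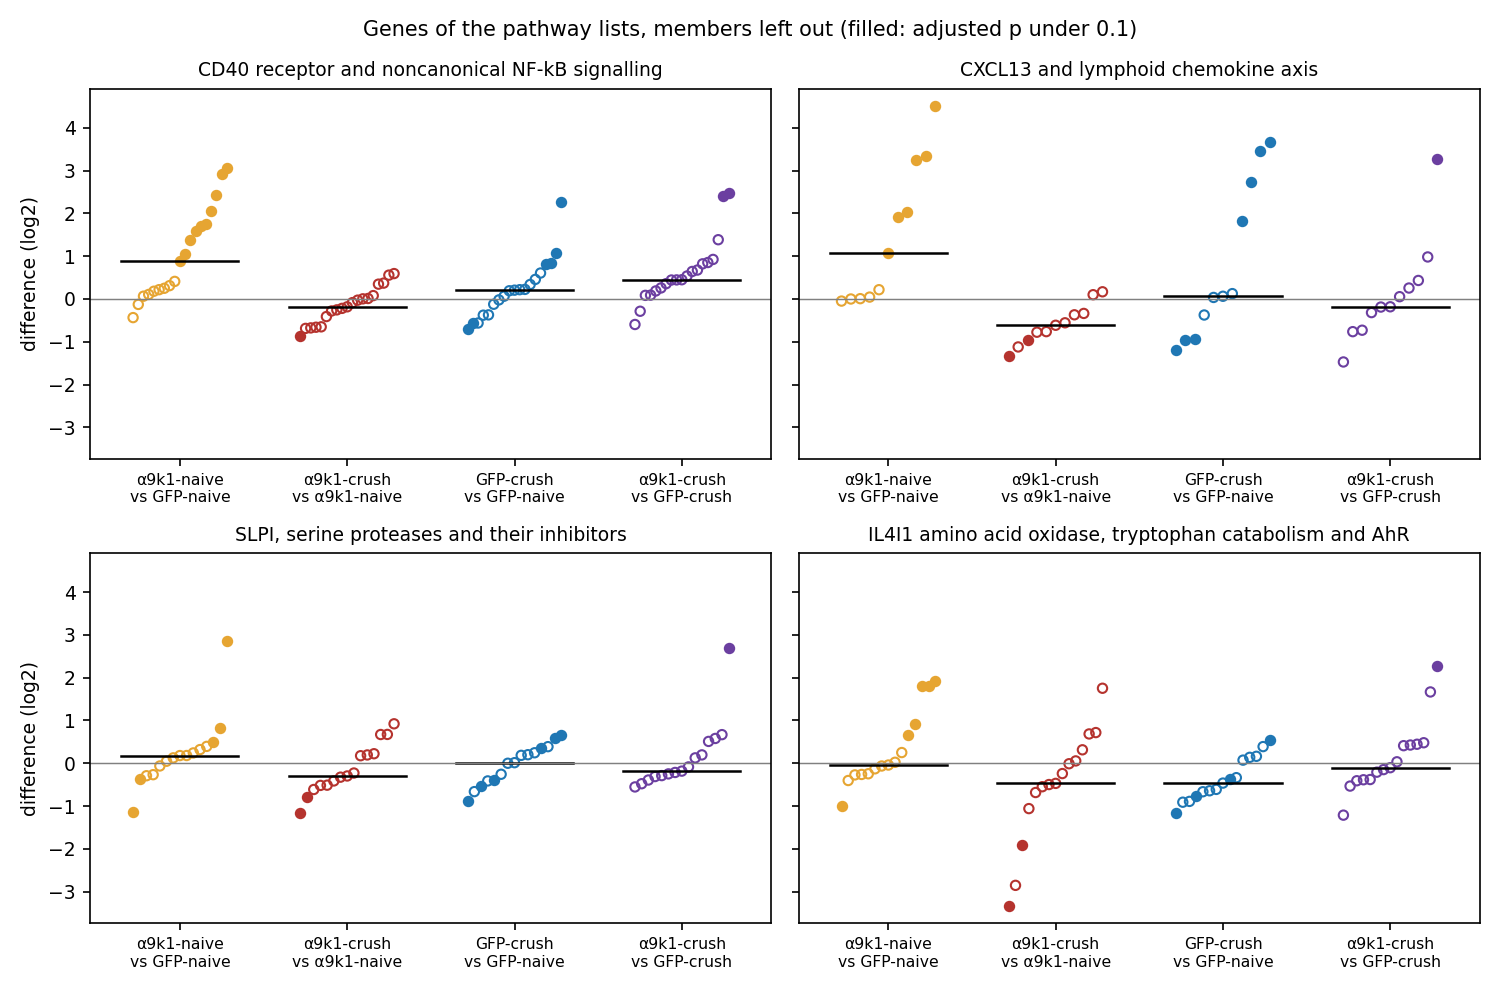
Differences (log2) of the genes on the 4 lists in the 4 comparisons, members left out, with 1 point per gene and filled points for limma adjusted p under 0.1. On the CD40 list 10 of 19 genes are called higher in α9k1-naive against GFP-naive, and on the chemokine list 6 of 11, while α9k1-crush against α9k1-naive shows 0 genes called higher on any of the 4 lists.

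Slpi and Cd40 lie within 1 stretch of chromosome 2, 667 kb apart. The 16 analysed genes between them had differences from -0.75 to 0.27 after crush in GFP neurons, the comparison that chose both members. Limma called 0 of them higher and 3 lower, where 7.39% and 15.7% of all genes were, so these counts lie near the background. The lower ones were Sdc4, a cell surface proteoglycan gene, at -0.70 (SE 0.18), Dbndd2 at -0.75 (SE 0.13) and Sys1 at -0.46 (SE 0.16), the last called in 13 of 19 fits without 1 library and not after quantile or median scaling. Between α9k1-naive and GFP-naive 2 were called higher and 3 lower, also near the shares of all genes (11.4% and 17.6%). One of the higher ones was Sdc4, the nearest analysed gene to Slpi, at 1.81 (SE 0.18), the same sign as Slpi. The nearest on the other side and farther away, the potassium channel gene Kcns1, was -3.18 (SE 0.32) in that comparison, opposite in sign to Slpi.

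The neighbours of Cd40, Ncoa5 at -0.35 (SE 0.19) and Slc35c2 at 0.04 (SE 0.15), were not called after crush in GFP neurons. Those of Cxcl13 were Ccng2 at -0.64 (SE 0.15, limma adjusted p = 0.014) and Mrpl1 at 0.11 (SE 0.09). Those of Il4i1 were Atf5 at -0.58 (SE 0.27) and Tbc1d17 at -0.22 (SE 0.11), neither called.

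**Figure D5:**
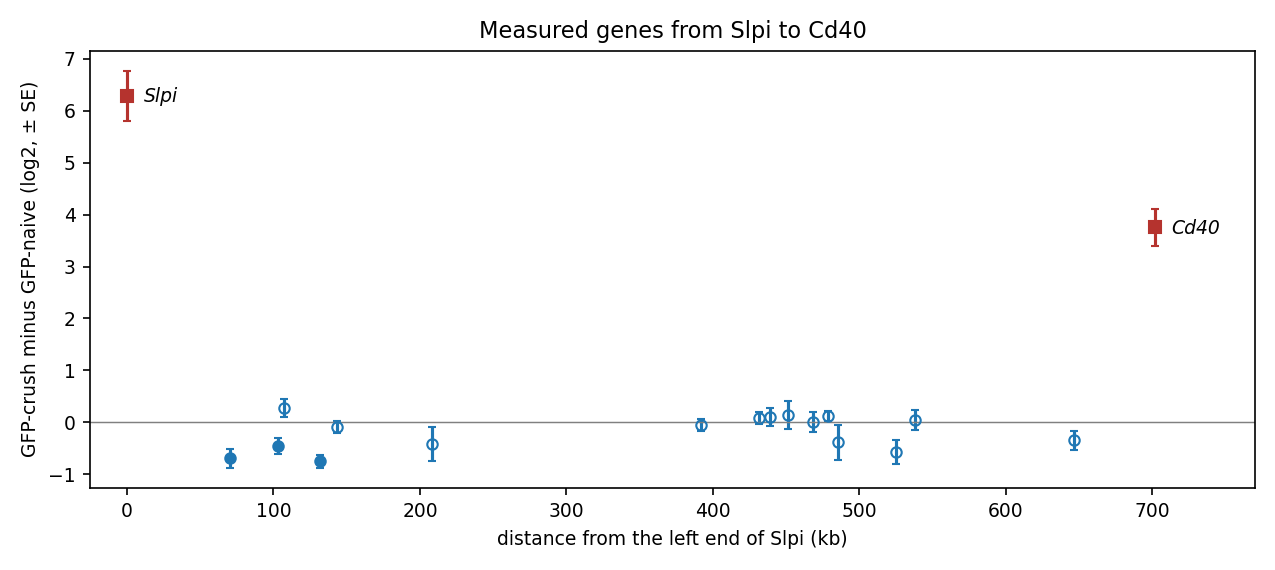
Difference between GFP-crush and GFP-naive (log2, ± SE) for each analysed gene from Slpi to Cd40, against distance from the left end of Slpi in kb. Slpi at 6.29 and Cd40 at 3.76 stand at the ends, and the 16 genes between them lie from -0.75 to 0.27.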

How the data were processed

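RNA-seq of sorted GFP-positive DRG cells (SMART-Seq v4) was measured in 19 libraries. The authors aligned reads to mm10 (GRCm38) with STAR, collected Picard metrics, counted genes with Salmon, removed genes under 10 counts in over 80% of samples, and deposited log2 counts with a small pseudocount, normalized by cqn for length of the gene and depth. The deposited library table holds counts of reads and bases, each fraction of reads or bases, coverage ratio and dropout percent that Picard gave. Tool versions are not given in the sources used here. A deposited gene table gives names, positions and the authors' own comparisons (fold changes and p-values, not used). Its rows were matched to the values by order, and its mean level correlated with the values at 0.959 (0.0899 after a shift by 1 row).

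The log2 values of 12629 genes were fitted with limma 3.58.1 (R 4.3.3) by group, with the first 3 principal components (45.9%, 24.1% and 11.5% of variance) of 48 scaled metrics, and Benjamini-Hochberg adjusted p under 0.1 was called. Batch, a term in the study's model, is not in the labels and was left out. Held equal, the components widen the comparison of α9k1-crush with GFP-crush most, with a variance factor of 3.11 against 0.5 without them. Only log2 levels per gene were used, so counting error per value is unknown. Exact permutation tests used scipy 1.17.1. The fit was tested on simulated data. Members, gene lists and rules were chosen with earlier results of these data known. Named were the members, the 5 genes most alike to each by Pearson r, the genes next to them in rank and position, the 3 largest called genes per pathway list and comparison (some are not reported here), and the most abundant markers, with called markers given as counts. Alternatives changed covariates, libraries, pseudocount, filter, scaling, weights and replicate block. Promoters are from RefSeq (GRCm38.p6), with 3 of 4 members matched.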

Additional observations from a re-analysis of the deposited data

Results flagged for a closer look

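Slpi and Cd40 stood out because α9k1 went with opposite shifts, each with groups apart, in uncrushed and in crushed animals. For Slpi, all α9k1-naive libraries lay above all GFP-naive libraries (means 6.18 and 3.16) and all α9k1-crush libraries lay below all GFP-crush libraries (5.07 and 9.25), so that the effects on deposited values were 3.02 and -4.18 and differed by -7.21 on the log2 scale. For Cd40 the effects were 2.18 (3.15 against 0.97) and -2.01 (2.60 against 4.61), which differed by -4.19. These differences were not tested, since one of the comparisons in each chose members. The effects had the same signs for Cxcl13 (3.42 and -0.40) and Il4i1 (0.73 and -1.46), but without groups apart in both. Choosing genes for a high GFP-crush level over GFP-naive or α9k1-crush favours such opposite signs. The share of all genes with such shifts was not counted. Over the 16 combinations of member and group, no library stood apart from its group by Dixon's test, where chance alone picks out about 1 in 20 groups.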

How the results depend on the processing

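Slpi, Cxcl13 and Cd40 kept their rise in α9k1-naive over GFP-naive under every alternative that gave a value and in all 19 fits that left out 1 library. Genes called without covariates numbered 5813 (3669 with) for α9k1-naive against GFP-naive, 7017 (1230) for α9k1-crush against α9k1-naive and 7323 (115) for α9k1-crush against GFP-crush, beside 3922 (2917) for GFP-crush against GFP-naive. There Il4i1 in the first gave 0.73 and was called (limma adjusted p = 0.0507), in the second Slpi at -1.12 and Cd40 at -0.55 were called and Il4i1 turned to 0.0079, and in the third Slpi was -4.18, Cxcl13 turned to -0.40 and Il4i1 was -1.46.

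With only the 2 groups compared, 202, 924 and 0 genes were called for α9k1-crush against α9k1-naive, GFP-crush against GFP-naive (2917 in the full fit) and α9k1-crush against GFP-crush, the last with 852 at an unadjusted limma p under 0.05. There Cxcl13 turned to -0.13 and Cd40 was -2.07 (-0.57 in the full fit) in the first, Cd40 was 3.28 in the second, and in the third Slpi was -3.78, Cxcl13 1.88, Cd40 -1.41 and Il4i1 -1.74. These fits hold fewer samples. With 1 added on the linear scale Cd40 rose by 3.20 after crush in GFP neurons and Il4i1 was -2.62 with α9k1 after crush. Array weights called 2045 genes for α9k1-crush against α9k1-naive and 178 against GFP-crush, where Slpi was -6.27. Of the genes called after crush in GFP neurons, 32.0% were higher, 46.8% after quantile normalization and 60.7% after median centring. Quantile normalization put Cd40 at -0.29 in α9k1-crush against α9k1-naive. Without the 25% of genes with the lowest means, Cd40 and Il4i1 were not in the fit.

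Replicate numbers shared between groups did not mark pairs, since 4 of 25 same-numbered pairs correlated above 0.1 (15 of 109 other pairs) and 3 of 18 libraries correlated best with their own number. With the replicate number as a block, 331 genes were called for α9k1-crush against α9k1-naive with Cd40 at -0.028, and 57 against GFP-crush, where Slpi was -5.96, Cxcl13 1.51, Cd40 -0.87 and Il4i1 -2.50.

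Leaving out 1 library, calls ranged from 2752 to 3814, 651 to 1744, 1502 to 3175 and 64 to 167 in the order α9k1-naive against GFP-naive, α9k1-crush against α9k1-naive, GFP-crush against GFP-naive and α9k1-crush against GFP-crush. The second fell to 734 and 651 without α9k1-naive replicates 1 and 4, the third to 1502 and 1905 without GFP-naive replicate 2 and GFP-crush replicate 2, and the fourth to 74 and 64 without GFP-crush replicate 2 and α9k1-naive replicate 4. In the second, none of the 4 members was called by limma in any of the 19 fits. There Slpi ranged from -2.50 to -1.11 (without GFP-naive replicate 1), Cxcl13 from 0.57 (without GFP-crush replicate 2) to 1.27 and Il4i1 from -1.52 to -0.70 (without GFP-naive replicate 4, with -0.76 without α9k1-naive replicate 4). Cd40 ranged from -1.08 without GFP-crush replicate 2 to -0.23 without α9k1-crush replicate 4, with -0.32 without α9k1-naive replicate 2 or 4. In the fourth, Slpi ranged from -6.64 to -4.36, Cxcl13 from -0.17 (without GFP-crush replicate 2) to 1.06, Cd40 from -3.34 to -1.76 and Il4i1 from -3.44 to -2.51. Apart from the covariates and the numbers of samples, the causes were not tested.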
